A study of Mus musculus with 8 samples.

Results

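Stem-gated cells with and without transcripts of mitosis were compared here in newborn and late fetal mice. Cells were selected on measured UMI counts, both for the gate and for the groups, and those genes are described below without a test. A stem-gated cell held at least 1 UMI (a unique molecular identifier, which counts 1 captured RNA molecule) of Mecom and 1 of Hlf, transcription factor genes of hematopoietic stem cells (HSCs), fewer UMIs of the myeloid gene Mpo than of Mecom, and none of Cd79a, Elane or Mcpt8, genes of B cells, neutrophil precursors and basophils. Of 31513 cells past the quality filter in 5 libraries, 15411 were stem-gated. A stem-gated cell was called mitotic when at least 3 of the 7 genes Top2a, Cenpf, Ube2c, Ccnb1, Plk1, Hmmr and Cdc20 had a UMI, which held for 4548 cells. It was called non-mitotic when all 7 were at 0, which held for 5856 cells. The other 5007 cells, with a UMI of 1 or 2 of the genes, were intermediate. These 3 names stand for the rule only. Transcripts of the 7 genes build up through late S and G2 phase and last into the next G1, so a call does not show that a cell was in mitosis.

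When a cell passes from G2 into mitosis, the forkhead factor FOXM1 and the MYB-MuvB complex switch on a large block of genes for the spindle, the kinetochores and the mitotic kinases, many of them through a promoter element named the cell cycle genes homology region (CHR). In resting cells the related DREAM complex holds the same block down, and E2F factors do the like for genes of DNA replication. Fetal and newborn HSCs divide often, whereas most adult HSCs rest, and cyclin D and CDK inhibitor genes, cholesterol supply and growth factor signals all bear on whether a stem cell enters the cycle.

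All cells had been sorted as Epcr+ Lin- Sca-1+ Kit+. The E19 library held cells of wild-type embryonic day 19 animals, whose number the labels do not give; its title names bone marrow and its tissue field fetal liver (batch 2). The P2 bone marrow and P2 spleen libraries came from 1 pool of 7 wild-type mice at postnatal day 2 (batch 1). Tubes 1 and 2 held mixed bone marrow and spleen cells of 2 P2 pups of the genotype Tppp3CreER LSLTdTomato, given tamoxifen at P0 (batch 3). As sorted, tube 1 combined 145 reporter-positive cells from pup 1 with 5500 reporter-negative ones from pup 2. In tube 2 the pups were swapped, with 180 positive cells from pup 2 and 5156 negative ones from pup 1. The Tppp3 driver limits the reporter to cells that expressed Tppp3 around the time of tamoxifen and to their progeny. The 5 libraries thus came from 3 animal sources, and stage and batch cannot be told apart. The p-values of the paired tests below set the mean difference within a library against how much it varies from library to library. In the main edgeR fit that spread is mostly shared over genes, with 31.1 degrees of freedom from all genes together against 4 from the gene itself.

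Mitotic cells were deeper, which the rule fixes in part, since a UMI of 3 or more genes is found more easily in a deep cell. Their median was 9848.5, 9030, 9144, 26396 and 29958 UMIs in E19, P2 bone marrow, P2 spleen, tube 1 and tube 2, against 5306, 4436.5, 4840, 13460 and 15959.5 UMIs in non-mitotic cells, and libraries are named in this order wherever 5 values follow each other. In every library the mitotic median was thus 1.86 to 2.04 times the non-mitotic one. Since deeper cells also show more genes, each mitotic cell was paired with the non-mitotic cell of its library nearest in total UMIs, within 10%. This gave 986, 138, 202, 197 and 161 pairs, 1684 in all, which used 54.6%, 27.0%, 39.7%, 18.2% and 25.1% of mitotic cells, mainly shallower ones. Pair medians were 8104.5, 6322, 6777.5, 17475 and 19985 UMIs in mitotic cells, against 7402, 5775.5, 6162, 16380 and 18847 in non-mitotic cells, so a small excess was left. Paired mitotic cells also had more genes with a UMI in 5 of 5 libraries (medians averaged 3999.7 against 3868). The rule genes are among the genes counted and an excess of UMIs was left, so this was set in part by the choice and is a description only. The mitochondrial share of paired mitotic cells averaged 2.17%, against 2.16% in paired non-mitotic cells (exact sign-flip permutation p = 0.875, 2-sided, where the smallest that 5 pairs allow is 0.0625). P2 liver, with 56 mitotic and 55 non-mitotic cells and 13 pairs, had too few for the tests.

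How many of the 7 genes a mitotic cell showed varied widely and moved with depth. Cells with all 7 made up 19.99%, 23.3%, 21.6%, 43.2% and 45.6% of mitotic cells in the 5 libraries, and cells with just 3 made up 23.1%, 20.2%, 19.4%, 14.8% and 15.4%. The deeper tubes were thus the ones with the most complete sets. On the 2 sides of the rule's threshold, cells with 3 of the genes had medians of 8 to 15 UMIs summed over the 7 genes in the 5 libraries (8, 8, 10, 14.5 and 15), and cells with 2 had medians of 4, 4, 4.5, 5 and 6. Only matched cells enter the main sums and fits below. Scrublet scores, which rise in droplets with 2 cells, were among the highest of their library in 18.8%, 12.1%, 15.3%, 4.44% and 2.96% of mitotic cells, against 6.86%, 0.605%, 1.69%, 0% and 0.857% of non-mitotic cells before matching. Leaving those cells out gave 1500 genes higher and 1481 lower, close to the result below. In matched cells the median score averaged 0.0360 in mitotic and 0.0409 in non-mitotic cells, and was higher in mitotic cells in 2 of 5 libraries. At E19 it was 0.0509 in mitotic and 0.0743 in non-mitotic matched cells.

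Stem cell genes were present in both groups, though of the genes behind the sort only Procr is given here. Procr, which encodes Epcr, averaged 39.2 ± 6.28 CPM (counts per 1000000 UMIs of a sum) in mitotic and 40.6 ± 11.7 CPM in non-mitotic sums (SD, n = 5), and Meis1, Mllt3 and Fgd5 were seen in every sum. Of the marker lists of other cells, 9 lists in all, erythroid genes were the most abundant in E19, P2 bone marrow and P2 spleen. The summed level of erythroid genes was 1190, 2168, 535, 14.4 and 98.9 CPM in mitotic sums, against 1302, 994, 549, 13.1 and 72.8 CPM in non-mitotic sums. In the tubes the macrophage list lay above them. It was at 128 CPM in mitotic and 147 CPM in non-mitotic cells of tube 1, and at 155 and 159 CPM in tube 2. The other 8 lists (B cell, T and NK cell, neutrophil, macrophage, mast cell, megakaryocyte, dendritic, and endothelial with stromal and hepatocyte) summed to between 0.349 and 201 CPM in any sum. The highest was the neutrophil list in tube 2, at 201 CPM in mitotic and 82.2 CPM in non-mitotic cells. Of 10 B cell markers 3 to 4 were at 0 in mitotic sums and 1 to 4 in non-mitotic sums, and of 12 T and NK cell markers 3 to 9 and 2 to 9. Among them Il2rb was at 0 in all 10 sums and Cd3e in 4 of 5 sums of each group, while Trbc2 and Nkg7 of the same list had 279 and 179 UMIs over the mitotic sums and 255 and 187 over the non-mitotic sums. Gate genes are given as a description only: Mecom was at 1421, 922, 1003, 942 and 1026 CPM in mitotic and 1976, 1026, 985, 1231 and 1421 CPM in non-mitotic sums.

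Mitotic cells were a smaller share of the stem gate than of the other sorted cells. With every cell thinned to 5000 UMIs, 22.04%, 41.8%, 36.7%, 28.3% and 27.1% of cells inside the gate were mitotic, against 45.5%, 54.6%, 57.9%, 48.0% and 36.1% of cells outside it. The share averaged 31.2% ± 7.95 inside and 48.4% ± 8.50 outside (SD, n = 5), a difference of −17.2 ± 6.09 percentage points with the lower share inside the gate in 5 of 5 libraries. The gate and the calls are both part of the rule, so the shares are a description with no test. Thinning left out 2121, 463, 395, 37 and 38 cells inside and 514, 1080, 2493, 32 and 141 outside. At 2500 UMIs the difference was −12.3 points and without thinning −18.6, though tube 2 was then nearly level (40.8% inside and 42.0% outside). At 5000 UMIs E19 had the lowest share inside and P2 bone marrow the highest. Their exact 95% binomial intervals (21.0% to 23.1% and 38.7% to 45.0%), which cover counting error only, did not overlap. Free RNA of dividing cells can put single UMIs of the 7 genes into other droplets, and its part was not tested. At this depth 43.7%, 19.8%, 23.3%, 34.0% and 37.5% of cells inside the gate had none of the 7 genes. Outside it these were 21.7%, 9.09%, 9.98%, 21.4% and 42.5%, so that tube 2 went the other way. P2 liver gave 31.5% inside (47 of 149 cells, 24.2% to 39.7%) and 45.4% outside.

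**Figure D1:**
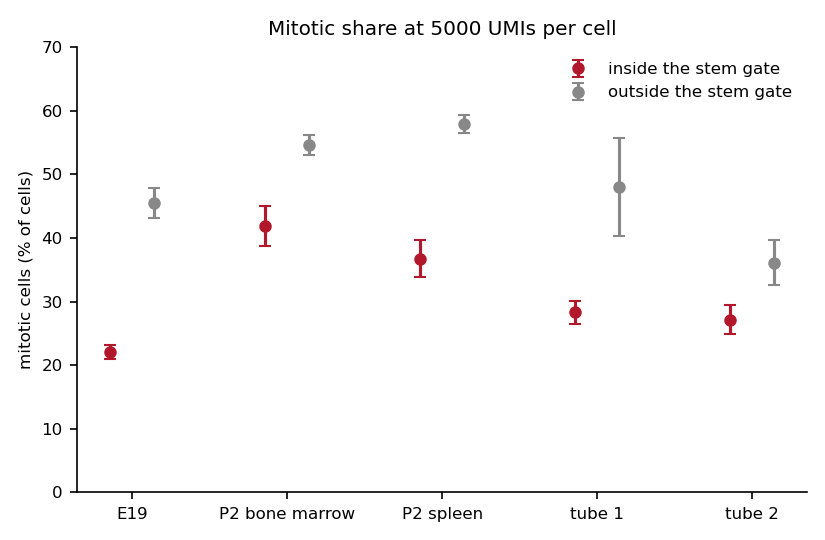
Share of mitotic cells, in percent of all cells past the quality filter after thinning to 5000 UMIs per cell, inside (red) and outside (grey) the stem gate in each of 5 libraries; bars are exact 95% binomial intervals. Inside the gate the share runs from 22.04% at E19 to 41.8% in P2 bone marrow, and each red point lies below the grey point of its library.

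For each library the UMI counts of matched mitotic cells and of matched non-mitotic cells were summed, and the 10 sums were fitted with a term for the library (edgeR). Of 11211 genes tested, 1582 were higher (14.1%) and 1555 lower (13.9%) in mitotic cells at an adjusted p of 0.05, so that 28.0% of all genes were called. The median absolute change of called genes was 0.47 on the log2 scale. Large changes lay on one side: 377 genes were higher by 2-fold or more, 141 of them in the 9 cell-cycle lists, and 107 were lower by 2-fold or more, of which 1, Ung, was in those lists. The 5 mitotic values of a gene did not overlap its 5 non-mitotic values for 829 genes (7.39%). The 7 rule genes and 6 gate genes were left out of the fit. Without the library term edgeR called 536 genes higher and 117 lower, and without the E19 library 1198 and 945. Of the 20 lists outside the cell-cycle lists 15 had 0 genes called without that term. DESeq2 called 852 genes higher and 565 lower.

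**Figure D2:**
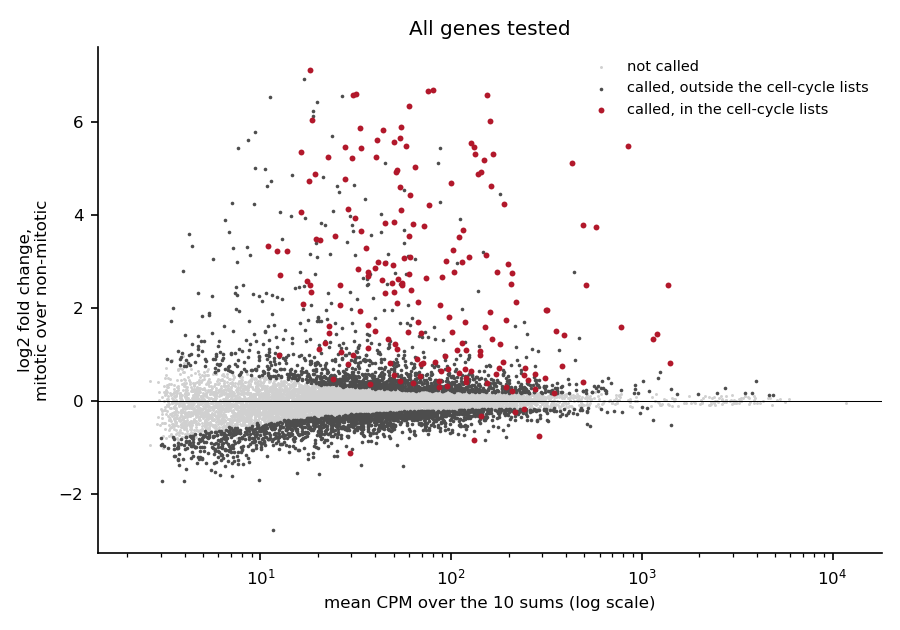
Log2 fold change of mitotic over non-mitotic stem-gated cells (vertical axis) against the mean CPM over the 10 sums (horizontal axis, log scale) for 11211 genes; red points are called members of the cell-cycle lists, dark grey other called genes, light grey genes not called. Points above a fold change of 2 on the log2 scale are far more numerous than points below −2, and called genes below 0 lie mostly between 0 and −1.

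Genes of the spindle, the kinetochore and the mitotic kinases were higher almost without exception. They belong to the programme that the 7 rule genes were taken from, so the values describe the chosen cells and are no test of it. Of 27 kinesin and spindle genes 26 were called higher and 0 lower, with a median log2 fold change of 4.96, against −0.02 over all genes tested. Kif4 (chromosome X, 100625737 to 100727214, plus strand, GRCm38/mm10), a chromokinesin of the central spindle, was at 131, 174, 177, 149 and 162 CPM in mitotic sums, against 1.64, 4.98, 2.57, 0.583 and 0.309 CPM in non-mitotic sums (6.69 ± 0.171 on the log2 scale). The lowest mitotic library was thus far above the highest non-mitotic one. Aspm, whose product sits at spindle poles and which is mutated in human microcephaly, was at 93.3, 162, 184, 137 and 177 CPM, against 1.23, 0, 0.858, 2.04 and 0.926 CPM in non-mitotic sums (6.65 ± 0.164). Kif2c, a kinesin that takes microtubules apart at centromeres, was at 57.4, 59.8, 86.1, 51.1 and 60.3 CPM, against 0.411, 2.49, 0, 0.583 and 0.617 CPM (6.603 ± 0.224). Again no library overlapped between the groups. Nusap1, which bundles spindle microtubules, was changed by 6.57 ± 0.123 (305 against 2.86 CPM), and Kif14, a kinesin of cytokinesis, by 6.59 ± 0.213 (60.4 against 0.709 CPM). Ckap2l, a spindle protein gene, was changed by 6.35 ± 0.189, and by 7.29 without E19.

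Promoters of Kif4, Aspm and Kif2c, of Depdc1a and Prr11 from outside the cell-cycle lists and of Ahnak are shown because the first 5 belong to genes that rose together and the last to one that fell. Kif4, Aspm and Kif2c had the largest positive fold changes inside the cell-cycle lists. Outside them Depdc1a and Prr11 had the largest positive ones and Ahnak the largest negative one. These rankings cover genes called with 1 sign in 5 of 5 libraries and a mean of at least 20 CPM. An entry in the promoter table was also needed. Kif18b, Lmna, Pimreg, Slfn5 and Igdcc4, with folds as large or larger, each miss at least 1 of these conditions. The sequences are those of RefSeq (GRCm38.p6), 250 bases before to 50 after the annotated start, 5′ to 3′ on the strand of the gene. Capitals mark TTTGAA, the CHR, and CCAAT, the box bound by NF-Y, in either orientation (TTCAAA and ATTGG on the other strand); these 2 motifs did not overlap each other in the 6 windows, and TTTGGCGC and TTTCCCGC, forms of the E2F site, had no match in them.
Kif4 (chrX:100625815-100626114, plus strand): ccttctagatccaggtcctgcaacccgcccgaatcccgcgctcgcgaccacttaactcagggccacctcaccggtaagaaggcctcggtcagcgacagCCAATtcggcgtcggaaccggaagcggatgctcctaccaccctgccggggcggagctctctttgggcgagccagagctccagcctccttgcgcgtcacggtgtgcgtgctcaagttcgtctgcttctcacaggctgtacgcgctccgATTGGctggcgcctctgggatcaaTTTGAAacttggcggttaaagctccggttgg
Aspm (chr1:139454523-139454822, plus strand): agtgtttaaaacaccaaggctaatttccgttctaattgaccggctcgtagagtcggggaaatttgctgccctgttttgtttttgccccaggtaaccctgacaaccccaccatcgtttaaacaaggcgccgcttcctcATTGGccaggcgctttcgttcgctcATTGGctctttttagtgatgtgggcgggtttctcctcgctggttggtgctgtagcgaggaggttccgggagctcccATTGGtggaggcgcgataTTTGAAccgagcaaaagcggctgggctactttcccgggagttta
Kif2c (chr4:117178723-117179022, minus strand): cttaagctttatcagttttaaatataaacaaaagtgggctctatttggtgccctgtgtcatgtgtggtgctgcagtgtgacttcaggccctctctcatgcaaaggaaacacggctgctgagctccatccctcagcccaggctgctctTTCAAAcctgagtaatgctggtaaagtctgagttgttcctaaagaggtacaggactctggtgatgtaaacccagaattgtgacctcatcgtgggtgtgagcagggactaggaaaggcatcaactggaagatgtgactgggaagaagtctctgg
Depdc1a (chr3:159495183-159495482, plus strand): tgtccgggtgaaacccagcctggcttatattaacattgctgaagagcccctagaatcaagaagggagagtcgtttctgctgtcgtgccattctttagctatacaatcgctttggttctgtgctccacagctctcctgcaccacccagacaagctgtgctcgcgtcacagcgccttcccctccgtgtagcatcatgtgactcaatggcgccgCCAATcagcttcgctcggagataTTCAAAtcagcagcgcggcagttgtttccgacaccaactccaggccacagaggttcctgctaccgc
Prr11 (chr11:87108665-87108964, minus strand): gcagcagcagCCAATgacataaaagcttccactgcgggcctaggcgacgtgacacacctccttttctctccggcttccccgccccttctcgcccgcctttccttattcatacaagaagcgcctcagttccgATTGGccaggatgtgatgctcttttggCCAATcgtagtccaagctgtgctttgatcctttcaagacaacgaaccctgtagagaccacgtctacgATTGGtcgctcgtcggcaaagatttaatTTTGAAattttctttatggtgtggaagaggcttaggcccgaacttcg
Ahnak (chr19:8989034-8989333, plus strand): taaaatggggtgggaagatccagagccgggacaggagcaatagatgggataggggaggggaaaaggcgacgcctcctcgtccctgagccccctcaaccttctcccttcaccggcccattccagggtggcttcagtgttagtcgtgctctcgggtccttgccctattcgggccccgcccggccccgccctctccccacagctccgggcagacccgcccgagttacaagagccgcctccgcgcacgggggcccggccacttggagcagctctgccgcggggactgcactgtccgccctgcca

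Counted from 1 at the annotated start, the CHR lay at position 20 in Kif4, 7 in Aspm and 4 in Prr11 (its first base in the window), and in Depdc1a 16 bases before the start. Each of these 4 promoters also held at least 1 CCAAT. In Kif2c, whose RefSeq start lies inside the longer GENCODE gene, it lay 103 bases before the start and no CCAAT was present, and the Ahnak window held no match. Searched on both strands, TTTGAA was found in 18.1% of all 27025 promoters of the table and in 11.9% of the 8878 promoters matched among 11211 genes tested. It was found in 20 of 24 promoters of the spindle list (83.3%), in 41.4% of 29 of the kinetochore list, in 56.5% of 23 of the kinase and cyclin list, and in 12.1% of 33 of the S phase list. Among genes higher by 2-fold or more it was found in 39.2% of 268 promoters, and among genes lower by 2-fold or more in 13.3% of 83. CCAAT was found in 63.1% of these 268 promoters and in 33.7% of these 83, against 39.3% of the genes tested. Either E2F form was found in 36.4% of the S phase promoters and 0% of the kinase and cyclin promoters, against 3.45% of the genes tested. These are matches of letters and not sites shown to be bound.

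Kinetochore genes rose in the same cells: 32 of 33 were higher and 0 lower (median 2.76). Knl1, the scaffold of the outer kinetochore, averaged 268 ± 33.9 CPM in mitotic and 9.94 ± 6.48 CPM in non-mitotic sums (4.87 ± 0.128). Nuf2, of the microtubule-binding Ndc80 complex, was changed by 5.87, Sgo2a, a guardian of centromeric cohesion, by 5.61, and Ska1 by 5.24. All 32 genes of mitotic kinases, cyclins and the checkpoint were higher (median 3.78). Aurkb, the kinase of the chromosomal passenger complex, was at 117, 132, 153, 60.3 and 66.4 CPM in mitotic sums, against 3.02, 1.24, 3.43, 0.583 and 0.617 CPM in non-mitotic sums (5.65 ± 0.164). Both tubes lay below the other libraries in mitotic cells, and no value overlapped between the groups. Bub1, a checkpoint kinase, was changed by 5.88 (6.57 without E19), Ccna2 (cyclin A2) by 5.47 and Cdc25c, the phosphatase that activates CDK1, by 6.04. Of 17 genes in the condensin and cohesin list 16 were higher (median 1.96). Mki67, which stands in this list but belongs to neither complex, coats mitotic chromosomes and gives the Ki-67 proliferation marker. It was at 559, 811, 835, 927 and 1060.0 CPM, against 23.4, 24.9, 39.5, 20.1 and 16.4 CPM in non-mitotic sums.

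The factors that drive this programme were higher too, but only part of the list. Of 20 cell-cycle transcription factor genes 10 were called higher and 0 lower (median 0.32). Foxm1 was at 36.2, 31.1, 27.9, 30.8 and 29.1 CPM in mitotic sums, against 2.74, 1.24, 1.72, 1.46 and 0.926 CPM in non-mitotic sums (4.07 ± 0.204), and its 5 mitotic values lay close together. E2f8 and E2f7, repressors among the E2F factors, were changed by 2.84 and 2.50 and E2f2, an activator, by 3.23. Tubulin genes were higher in 7 of 10 (median 1.18), led by Tubb4b at 1.96 and Tuba1c at 1.93. Outside these lists the leading genes were of the same kind in part. Pimreg, which acts at the metaphase to anaphase transition, was changed by 6.58 ± 0.227 (61.2 against 0.745 CPM) and Knstrn, a spindle and kinetochore protein gene, by 4.54 ± 0.148. Depdc1a (6.55, and 7.39 without E19), Prr11 (5.69) and Efcab11 (5.12) were the others, with Neil3, a DNA repair glycosylase gene, at 5.45 (170.3 against 4.92 CPM).

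Most genes of DNA synthesis were also higher in the mitotic group. Of 45 S phase genes 35 were higher and 3 lower (median 0.69). Rrm2, a subunit of ribonucleotide reductase, was at 50.5, 74.2, 59.9, 61.1 and 58.2 CPM, against 7.95, 17.4, 24.9, 6.99 and 3.70 CPM in non-mitotic sums (2.68 ± 0.173). Clspn, a replication checkpoint gene, was changed by 2.66. The 3 lower genes, named because they were few, were Ung, Cdca7 and Mcm6. Ung, which removes uracil from DNA, was at 15.9, 14.4, 6.56, 21.99 and 17.9 CPM in mitotic sums, against 39.3, 80.9, 46.3, 28.6 and 23.2 CPM in non-mitotic sums (−1.12 ± 0.175, edgeR adjusted p = 4.29e-06). The helicase subunit gene Mcm6 was changed by −0.24 ± 0.0768 (adjusted p = 0.0192, and 0.088 and 0.139 without P2 bone marrow or P2 spleen) and Cdca7 by −0.33 ± 0.0736 (adjusted p = 0.000791). Without matching Mcm6 and Cdca7 were higher (0.12 and 0.14). Intermediate cells, matched to the same depth, had more of each than either group: Ung averaged 68.9 CPM in them, Mcm6 314 and Cdca7 208 CPM. With the stricter call of at least 5 genes, 19 S phase genes were higher and 10 lower.

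All 21 histone and chromatin genes tested were higher (median 2.13). Hist1h1b, a linker histone gene, was at 784, 3189, 2184, 1005 and 1141 CPM, against 15.6, 64.7, 55.8, 27.7 and 22.2 CPM in non-mitotic sums (5.49 ± 0.0767). P2 bone marrow and spleen were the highest in both groups. Hist1h1a was changed by 4.24. Hist1h3c (6.02), Hist1h2ae (3.79), Hist1h2ab (5.11), Hist1h2an (4.81), Hist1h2bm (4.64) and Hist1h2ak (4.63) have near-identical copies that can share reads, so which copy rose is uncertain.

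**Figure D3:**
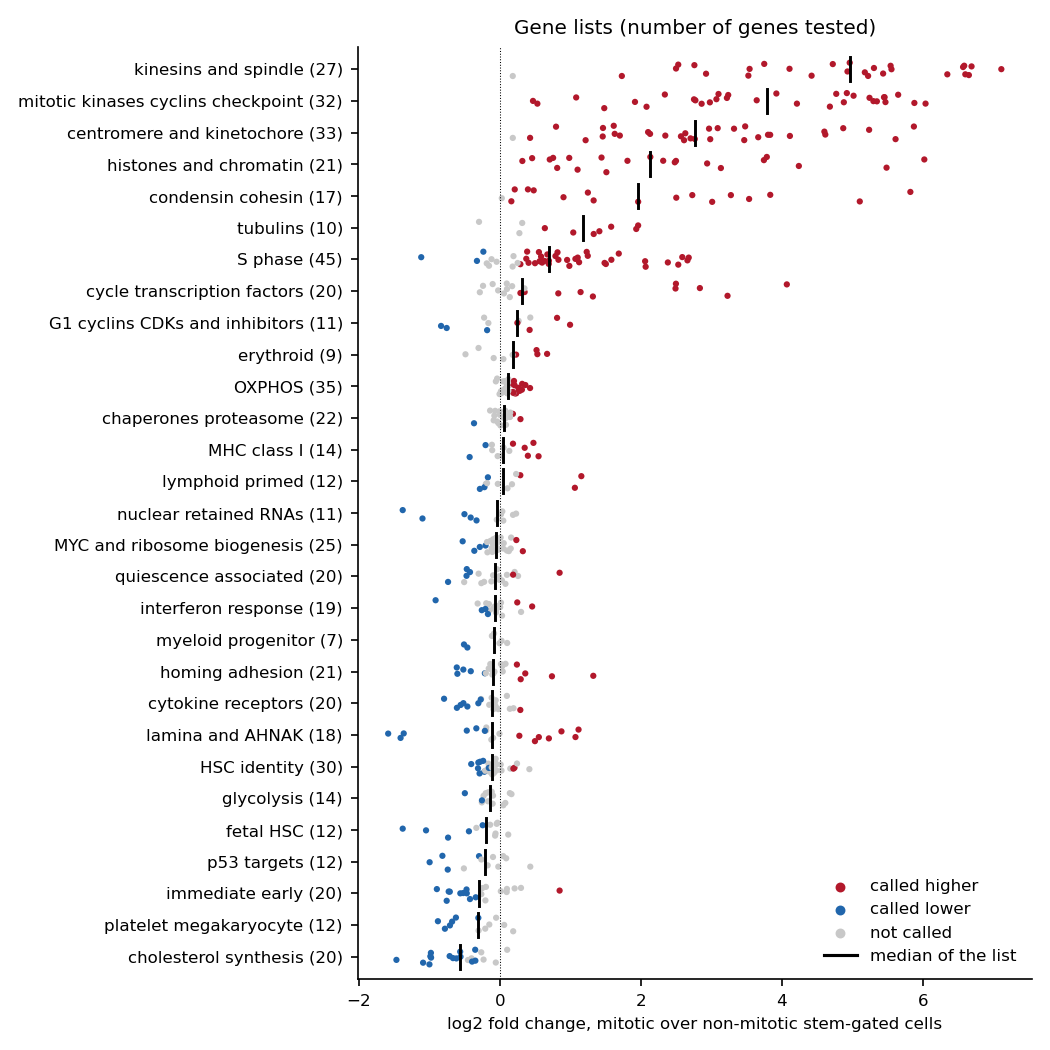
Log2 fold change of mitotic over non-mitotic stem-gated cells for each gene tested in 29 lists, ordered by list median (black bars); red and blue points are genes called higher and lower, grey points genes not called, and the number of genes tested stands after each name. The spindle list has a median of 4.96 and 26 of 27 genes called higher, while the cholesterol list at the bottom has a median of −0.56 and 14 of 20 genes called lower.

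G1 genes moved in both directions, cyclin genes and kinase genes alike, with 63.6% of the list called against 28.0% of all genes. Ccnd2 (cyclin D2) was at 148, 215, 201, 282 and 248 CPM in mitotic sums, against 304, 335, 350.2, 394 and 426 CPM in non-mitotic sums (−0.76 ± 0.0691, edgeR adjusted p = 2.89e-11). Every mitotic value lay below every non-mitotic one. Ccnd1 (cyclin D1) was at 43.7, 85.0, 84.5, 133 and 129 CPM, against 100.5, 171, 173, 192 and 199 CPM in non-mitotic sums (−0.84 ± 0.0848, adjusted p = 4.21e-10), lower in 5 of 5 libraries with overlap across libraries. The kinase gene Cdk6 was the third lower gene of 11 (−0.18 ± 0.0669, edgeR adjusted p = 0.0377). Cdk6 was not called without E19, P2 bone marrow or P2 spleen (adjusted p = 0.0671, 0.0609 and 0.211) nor by DESeq2 (adjusted p = 0.112), and was higher without matching (0.55). The 4 higher genes were Ccne1 (cyclin E1, 0.99 ± 0.196), the CDK inhibitor genes Cdkn2d (0.81 ± 0.0992) and Cdkn1b (0.42 ± 0.0988), and Cdk4 (0.25 ± 0.0624). Cdkn2d averaged 62.0 ± 15.4 CPM in mitotic and 33.7 ± 7.13 CPM in non-mitotic sums. Cdkn1c, an inhibitor tied to HSC rest, was at −0.23 ± 0.0991 and not called (adjusted p = 0.0876). Ccne1 averaged 25.8 CPM in intermediate cells, above both groups (15.6 against 9.40 CPM).

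HSC identity genes moved little, and more of those called were lower. Of 30 tested, 8 were lower and 2 higher (Lmo2, 0.21 ± 0.0563, and Cd34, 0.19 ± 0.0658), with a median of −0.11. The share called, 33.3%, was near the 28.0% of all genes, and without the library term 0 of the list were called. Cd34 was not called without E19, tube 1 or tube 2 (adjusted p = 0.135, 0.127 and 0.108). Angpt1, which encodes angiopoietin-1, was at 1052, 905, 1072, 839 and 1069.7 CPM in mitotic sums, against 1517, 1296, 1222, 1199.6 and 1302 CPM in non-mitotic sums (−0.41 ± 0.0540, edgeR adjusted p = 1.77e-07). The groups did not overlap, though the step was small beside those of the cycle genes. Mllt3, a self-renewal factor gene, averaged 361 ± 54.2 CPM in mitotic and 442 ± 90.3 CPM in non-mitotic sums (−0.31 ± 0.0721, adjusted p = 0.00106), with 4 of 5 libraries lower. Fgd5, a marker of long-term HSCs, was at −0.29 ± 0.0819 and not called without tube 2 (−0.25, adjusted p = 0.0657). Procr was at −0.16 ± 0.115 and not called. DESeq2 called 1 of the list higher and 6 lower, without Fgd5 and Cd34 (adjusted p = 0.0736 and 0.173), and edgeR without tube 2 called 5 lower. Cells compared without matching differed more, with 25 of these genes lower and a median of −0.45.

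Fetal genes were lower or not called. Of 12 tested, 5 were lower and 0 higher: Meg3, Igf2, Mycn, Dlk1 and Igf2bp2. The share called was 41.7%, against 28.0% of all genes, and without the library term 1 was lower. Meg3, an imprinted noncoding RNA of long-term HSCs, was at 52.5, 15.6, 12.3, 10.3 and 8.18 CPM in mitotic sums, against 119.9, 23.7, 23.2, 35.0 and 35.8 CPM in non-mitotic sums (−1.38 ± 0.130, edgeR adjusted p = 6.65e-11). E19 was the highest library in both groups, and the mitotic value was the lower one in 5 of 5 libraries. Mycn, the MYC family factor gene of stem cells, was at 81.2, 73.0, 84.5, 86.2 and 104 CPM, against 114, 139, 142, 157 and 186 CPM in non-mitotic sums (−0.74 ± 0.0775, adjusted p = 1.03e-09) without overlap. Igf2 was scarce (4.47 against 8.58 CPM, −1.05 ± 0.224), and Dlk1, a noncanonical Notch ligand gene (−0.44 ± 0.125), was not called without tube 1 or tube 2 (adjusted p = 0.0626 and 0.0598). Igf2bp2, an RNA-binding protein gene, was at −0.25 ± 0.0748 and not called without tube 2 (adjusted p = 0.0534). The let-7 regulator gene Lin28b (−0.14 ± 0.0845) and Hmga2 (−0.063 ± 0.0539), both classic fetal HSC genes, were not called (adjusted p = 0.23 and 0.409). DESeq2 called 2 of the 12 lower, without Igf2, Dlk1 and Igf2bp2 (adjusted p = 0.162, 0.0623 and 0.0765), and edgeR called 3 without tube 1 and 2 without tube 2. Among nuclear-retained RNAs, 5 of 11 were lower and 0 higher (3 and 2 without E19), with 45.5% called against 28.0% of all genes. Rian, another RNA of the Meg3 locus, was at −1.10 ± 0.235 and Kcnq1ot1, an imprinted antisense RNA, at 365, 367, 382, 527 and 514 CPM, against 629, 565, 527, 642 and 671 CPM in non-mitotic sums (−0.50 ± 0.0634, adjusted p = 6.06e-08); antisense and host reads were not separated here.

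Nuclear lamina genes went both ways. Of 18 lamina and AHNAK-linked genes 7 were higher and 6 lower (72.2% called, against 28.0% of all genes). Lmnb1, the lamin of dividing and undifferentiated cells, was at 336, 413, 343, 362 and 362 CPM in mitotic sums, against 147, 197, 168, 189.7 and 147 CPM in non-mitotic sums (1.11 ± 0.0660, edgeR adjusted p = 1.22e-16). Lmna, which encodes lamin A and C, was at 9.92, 10.8, 10.7, 5.997 and 7.88 CPM, against 9.05, 26.1, 30.9, 51.3 and 39.8 CPM in non-mitotic sums (−1.59 ± 0.247, adjusted p = 4.1e-06, and −2.39 without E19). The mitotic value was the lower one in the 4 P2 libraries and the higher one at E19. Ahnak, which encodes a giant scaffold protein under the membrane (chromosome 19, 8989284 to 9076914, plus strand), was at 9.51, 9.57, 12.3, 38.8 and 67.9 CPM, against 12.9, 59.7, 62.7, 143 and 144 CPM in non-mitotic sums (−1.41 ± 0.142, adjusted p = 3.62e-10). It was lower in mitotic cells of every library, with the tubes highest in both groups and E19 lowest in both. Pde3a, a cyclic nucleotide phosphodiesterase gene, was at −1.37 ± 0.220 (4.12 against 11.2 CPM).

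**Figure D4:**
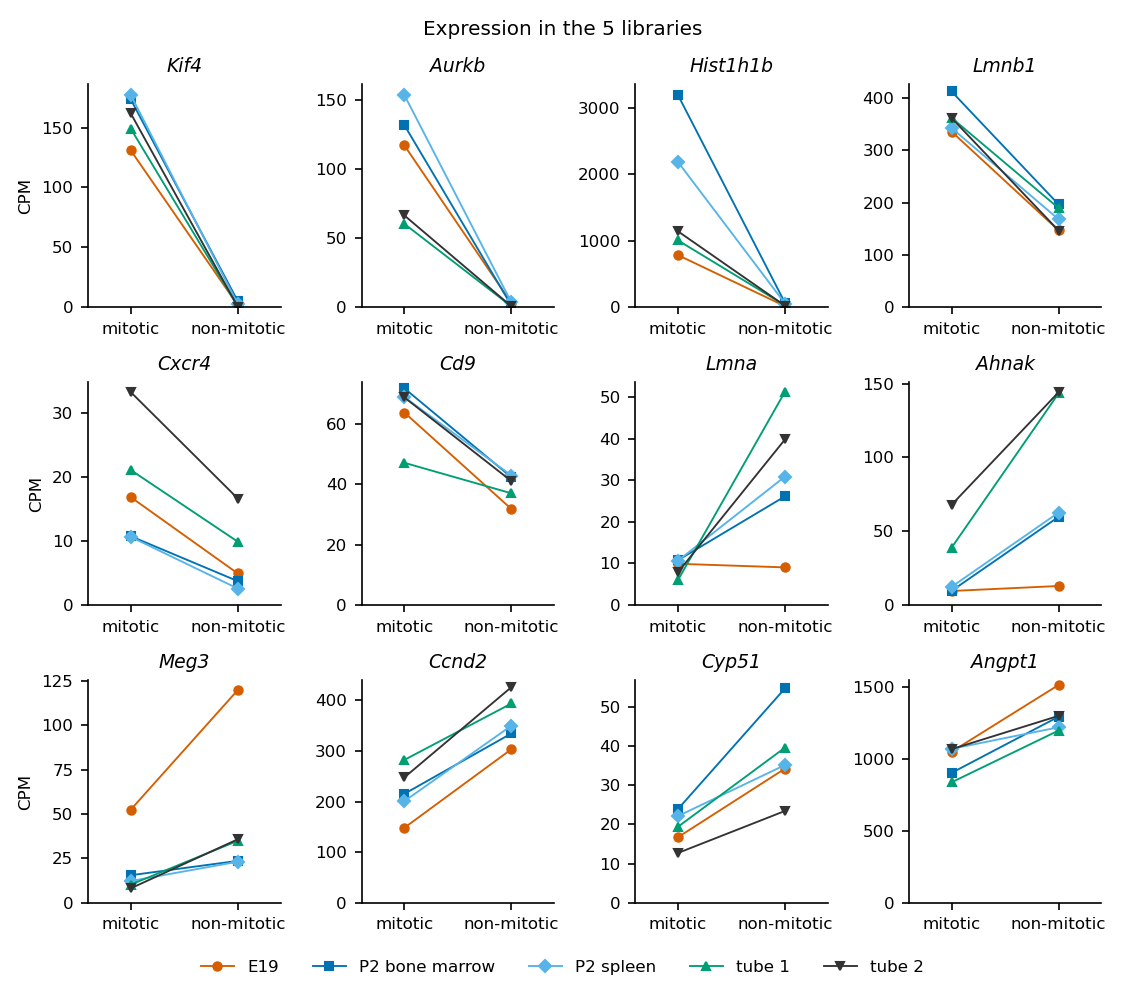
Expression in CPM of 12 genes in the mitotic (left) and non-mitotic (right) sum of each of 5 libraries, 1 line per library. Kif4, Aurkb, Hist1h1b, Lmnb1, Cxcr4 and Cd9 fall along every line toward the right, and Ahnak, Meg3, Ccnd2, Cyp51 and Angpt1 rise along every line; Lmna rises in the 4 P2 libraries and is nearly level at E19.

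Most cholesterol genes were lower. Of 20 genes of cholesterol synthesis and uptake 14 were lower and 0 higher, with a median of −0.56, against 13.9% lower among all genes tested. Cyp51, which removes a methyl group from lanosterol, was at 16.8, 23.9, 22.1, 19.4 and 12.7 CPM in mitotic sums, against 34.3, 54.8, 35.2, 39.6 and 23.5 CPM in non-mitotic sums (−0.98 ± 0.120, edgeR adjusted p = 3.26e-08). It was lower in 5 of 5 libraries. Mvd, of the mevalonate branch, averaged 2.30 ± 0.664 CPM in mitotic and 5.88 ± 0.632 CPM in non-mitotic sums (−1.47 ± 0.295) without overlap, and Lss and Msmo1, late steps of the pathway, were at −1.001 ± 0.266 and −0.99 ± 0.146. DESeq2 called 9 lower, without Lss (adjusted p = 0.245) and with no adjusted p for Mvd. Across the 15 alternatives with matched cells the number of lower genes ranged from 6 to 16, with 0 higher in each. Without matching the median was −0.51.

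Other energy and growth genes moved by small steps. Of 35 oxidative phosphorylation genes 14 were higher and 0 lower (median 0.12), led by Ndufa2 (0.43 ± 0.0693), Cox7a2 (0.36 ± 0.0658), Ndufb9 (0.31 ± 0.0629) and Cox8a (0.31 ± 0.0563), subunits of complexes I and IV. Of 14 glycolysis genes 2 were lower, Hk2 (−0.50 ± 0.106), a hexokinase gene, and Ldha (−0.26 ± 0.0643), a lactate dehydrogenase gene, and 0 higher. Of 25 genes of MYC and ribosome synthesis 4 were lower, among them Myc itself (−0.53 ± 0.103, 38.6 against 54.7 CPM, lower in 5 of 5), and 2 were higher, among them Odc1 (0.32 ± 0.0756), of polyamine synthesis. Chaperone and proteasome genes (2 higher and 1 lower of 22) had a median of 0.05. Hspa5, the chaperone gene BiP, was the lower one (−0.37 ± 0.0642). The shares called (40% for oxidative phosphorylation, 14.3% for glycolysis, 24% for MYC and 13.6% for chaperones) stand against 28.0% of all genes. DESeq2 called 5 oxidative phosphorylation genes higher, and edgeR 4 without E19 and 7 without tube 1 or without tube 2. Of the MYC list DESeq2 called 1 higher and 1 lower. These lists also depend on the matching: without it 33 oxidative phosphorylation genes and 24 of the MYC list were higher, and the MYC list's median was 0.50 against −0.06 with it.

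Among signal-response genes more were lower than higher. Of 20 immediate early genes 10 were lower, 1, Klf2, was higher and 9 were not called (median −0.30). The share called was 55%, against 28.0% of all genes. DESeq2 called 3 lower and 1 higher, without Fos, Fosb and Nr4a1 (adjusted p = 0.103, 0.066 and 0.195). Junb, an AP-1 factor gene, was at 62.2, 50.3, 22.1, 22.3 and 12.7 CPM in mitotic sums, against 109, 67.2, 42.9, 32.3 and 25.9 CPM in non-mitotic sums (−0.76 ± 0.105, edgeR adjusted p = 5.08e-07). E19 was highest in both groups and every library was lower in mitotic cells. Fos was at 87.5, 23.9, 6.56, 11.1 and 5.15 CPM, against 97.7, 46.1, 6.87, 27.4 and 32.1 CPM in non-mitotic sums (−0.73 ± 0.175, and −1.54 without E19). Fosb was at −0.90 ± 0.240, lower in 4 of 5 libraries. Klf2, a factor gene of quiescent lymphocytes and stem cells, went the other way, at 55.9, 16.8, 13.9, 19.7 and 13.03 CPM, against 32.4, 6.22, 6.87, 12.2 and 5.87 CPM in non-mitotic sums (0.85 ± 0.134, adjusted p = 5.57e-06), higher in 5 of 5 libraries; without matching it was lower (−0.25). Nr4a1, an orphan nuclear receptor gene induced by stimuli, was at −0.47 ± 0.131 and lower in 5 of 5, but was not called without E19 (−0.50, adjusted p = 0.187). The quiescence-associated list as a whole had 2 higher and 4 lower of 20 (median −0.07), 30% against 28.0% of all genes, and 1 and 1 by DESeq2.

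Of 20 cytokine receptor genes 7 were lower and 1 higher (median −0.11), against 13.9% lower and 14.1% higher among all genes. DESeq2 called 2 lower and 1 higher, and edgeR 4 lower without E19. Csf2rb, the common beta chain of the IL-3 and GM-CSF receptors, was at 25.6, 22.7, 31.99, 44.3 and 47.3 CPM in mitotic sums, against 41.4, 52.3, 41.2, 58.0 and 59.3 CPM in non-mitotic sums (−0.52 ± 0.106, edgeR adjusted p = 0.000235). Its neighbour Csf2rb2, a near-identical copy whose reads can be shared, was at −0.79 ± 0.227 and not called by DESeq2 (adjusted p = 0.0532). The 1 higher gene, Flt3, a receptor of lymphoid-primed progenitors, was at 0.29 ± 0.0705 and not called without tube 2 (adjusted p = 0.0582). Homing and adhesion genes split evenly, with 5 higher and 5 lower of 21; DESeq2 called 2 and 2, and edgeR 2 higher without E19 or without tube 2 and 3 without tube 1. Cxcr4, the receptor that holds HSCs in the marrow through CXCL12, was at 16.9, 10.8, 10.7, 21.1 and 33.3 CPM, against 4.93, 3.73, 2.57, 9.91 and 16.7 CPM in non-mitotic sums (1.32 ± 0.173, adjusted p = 1.36e-07), higher in 5 of 5. Its level was highest in tube 2 in both groups. The tetraspanin genes Cd9 and Cd63 moved in opposite directions. Cd9 averaged 64.1 ± 9.91 CPM in mitotic and 39.0 ± 4.65 CPM in non-mitotic sums (0.74 ± 0.101, adjusted p = 3.53e-07), and Cd63 95.5 ± 13.3 and 144 ± 13.8 CPM (−0.61 ± 0.0739, adjusted p = 2.49e-08), neither with overlap. The integrin gene Itgal was at −0.52 ± 0.117 and the junction gene Jam3 at −0.60 ± 0.127 (adjusted p = 0.066 by DESeq2, not called).

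Counts of lineage genes depended on the tool. The edgeR shares called were 50% (platelet), 44.4% (erythroid), 28.6% (myeloid) and 50% (lymphoid-primed), against 28.0% of all genes. DESeq2 called 3 platelet genes lower, 1 erythroid gene higher, 0 myeloid genes, and 2 lymphoid-primed genes higher and 1 lower. With edgeR, of 12 platelet and megakaryocyte genes 6 were lower and 0 higher (median −0.31), among them Plek, a platelet kinase substrate gene (−0.78 ± 0.126, 20.9 against 36.7 CPM, lower in 5 of 5), against 13.9% lower among all genes. Vwf, the marker of platelet-biased HSCs, was at −0.88 ± 0.197, and Pf4 at −0.71 ± 0.207; neither was called without E19 (adjusted p = 0.0708 and 0.0848). Selp (−0.68 ± 0.249) was not called without P2 bone marrow, tube 1 or tube 2 (−0.42 without tube 1, adjusted p = 0.287). Of 9 erythroid genes 4 were higher (Hbb-bs, Hba-a1, Blvrb and Car2) and 0 lower. Hbb-bs, an adult beta-globin gene, was at 168, 982, 122, 7.14 and 46.7 CPM in mitotic sums, against 189, 269, 48.9, 6.99 and 38.0 CPM in non-mitotic sums (0.67 ± 0.168). P2 bone marrow stood far above the rest, and without it Hbb-bs was at 0.21 and not called (adjusted p = 0.207). In that library the summed erythroid markers, globins included, were 2168 CPM in mitotic and 994 CPM in non-mitotic cells; the part of free globin RNA was not tested. Car2, a carbonic anhydrase gene, was at 0.23 ± 0.0557 (548 against 469 CPM) and higher in 5 of 5. Of 7 myeloid progenitor genes 2 were lower, Csf3r (−0.46 ± 0.107) and Irf8 (−0.51 ± 0.181, not called without E19, P2 spleen or tube 2), and of 12 lymphoid-primed genes 3 were higher (Ighm, Ccr9 and Flt3) and 3 lower (Cd52, Lsp1 and Bcl11a). Ighm, an immunoglobulin heavy chain gene, was at 1.15 ± 0.252 but higher in only 3 of 5 libraries (17.6, 8.38, 20.5, 9.42 and 18.2 CPM, against 7.40, 8.71, 27.5, 2.91 and 2.16 CPM in non-mitotic sums).

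Among stress and immune lists of 12, 19 and 14 genes tested, 33.3% of p53 targets, 31.6% of interferon response and 50% of MHC class I genes were called, against 28.0% of all genes. DESeq2 called 0 p53 targets higher and 1 lower, 0 and 2 interferon response genes, and 2 and 1 MHC class I genes. Of 12 p53 target genes 4 were lower, among them Bax (−0.30 ± 0.0795, 74.7 against 94.5 CPM, lower in 5 of 5), an inducer of apoptosis, and 0 higher; 2 were lower without E19 and 1 without tube 1. Of 19 interferon response genes 4 were lower (Ifit1, Ifitm1, Bst2 and Ifitm3) and 2 higher (Ifi27l2a and Ly6e), with Ifit1 at −0.91 ± 0.182 (8.33 against 15.9 CPM) and Ifitm1 at −0.26 ± 0.0502; without P2 spleen, tube 1 or tube 2 only 2 were lower. Of 14 MHC class I genes 5 were higher (H2-Q4, H2-T22, Tap1, Psmb9 and H2-K1) and 2 lower (Nlrc5 and Pdia3). H2-T22, whose reads can be shared with related class I genes, was at 0.47 ± 0.113 and higher in 5 of 5.

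The leading lower genes outside the cell-cycle lists were of many kinds. Itpr2, an IP3 receptor calcium channel gene, was at 8.17, 15.6, 18.05, 14.9 and 16.7 CPM in mitotic sums, against 21.7, 43.6, 40.3, 28.9 and 34.9 CPM in non-mitotic sums (−1.19 ± 0.133, edgeR adjusted p = 4.52e-09), with no overlap. Kdm7a, a histone demethylase gene, was at 40.7, 26.3, 24.6, 42.6 and 43.3 CPM, against 92.1, 51.0, 56.6, 65.0 and 78.4 CPM in non-mitotic sums (−0.95 ± 0.0981, adjusted p = 6.69e-10), again with no overlap. E19 had the lowest Itpr2 level of each group, and the highest non-mitotic level of Kdm7a. Adam22, a membrane protein gene of the ADAM family, was at −1.19 ± 0.129 (16.6 against 33.7 CPM). Ndnf, a secreted neurotrophic factor gene, was at −1.03 ± 0.116, Adgrl2, an adhesion receptor gene, at −0.91 ± 0.112, and Plaur, the urokinase receptor gene, at −0.88 ± 0.131. Eid2 (−1.03), Fndc3b (−0.98), Ydjc (−0.91) and Eml5 (−0.88), which encodes a microtubule-associated protein, were others, beside Ahnak, Meg3 and Cyp51. Without matching Ydjc was at 0.053. All of these were lower in 5 of 5 libraries, which the rule for naming them required. In intermediate cells the mean of 29 of the 30 leading genes lay between those of the 2 groups. The exception was Ydjc (36.6 CPM, above both). The 30 genes were chosen for their difference between the groups, and intermediate cells carry some of the rule genes. A mean in between was thus largely set by the choice, and it is a description only.

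The mitotic difference was set against stage by a test of the difference itself, E19 minus P2. E19 is 1 library with no spread of its own, so the fit takes its spread from the P2 libraries and assumes that E19 varies like them. Of 11211 genes 14 (0.125%) were called, 7 with a higher and 7 with a lower fold change at E19. Cenpa, the centromeric histone gene, was higher in mitotic cells everywhere, but by less at E19. It was at 315 CPM in mitotic and 96.2 CPM in non-mitotic cells at E19, and at 355, 345, 251 and 268 CPM in mitotic and 27.4, 30.0, 26.2 and 23.5 CPM in non-mitotic cells of the 4 P2 libraries (E19 minus P2 −1.73 ± 0.154, edgeR adjusted p = 1.96e-08). The mitotic level at E19 thus lay within the range of the P2 libraries, and the non-mitotic level at E19 above all of them. Lmna was level at E19, at 9.92 CPM in mitotic and 9.05 CPM in non-mitotic cells, and lower in mitotic cells of each P2 library (2.51 ± 0.3801, adjusted p = 0.000702). Vim, the vimentin gene, was at 300.4 CPM in mitotic and 207 CPM in non-mitotic cells at E19. At P2 it was at 487, 514, 498 and 483 CPM in mitotic and 586, 566, 699 and 545 CPM in non-mitotic cells (0.82 ± 0.124, adjusted p = 0.000702). The mitotic value was the higher one at E19 and the lower one in each P2 library.

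Hba-a1 and Hba-a2, near-identical alpha-globin copies that can share reads, were lower in mitotic cells at E19 and higher in each P2 library. Hba-a2 was at 51.7 CPM in mitotic and 80.6 CPM in non-mitotic cells at E19. At P2 it was at 157, 32.8, 2.28 and 15.2 CPM in mitotic and 49.8, 17.2, 1.17 and 10.2 CPM in non-mitotic cells (−1.80 ± 0.253, adjusted p = 0.000304). Hba-a1 differed by −1.45 ± 0.226 (adjusted p = 0.000802). Over all libraries its mitotic difference was 0.53 ± 0.164, without E19 it was 1.35, and without P2 bone marrow 0.20 and not called. Leaving out P2 bone marrow, whose globin levels were the highest at P2, left 7 higher and 2 lower genes called, and leaving out P2 spleen gave 10 and 22. DESeq2 called 1 gene, Cenpa (adjusted p = 4.95e-07), and not Lmna, Vim, Hba-a1 or Hba-a2 (adjusted p = 1, 0.418, 1 and 0.962), and without the library term edgeR called 0 (58 genes at an unadjusted p under 0.05). Stage, batch and tissue cannot be told apart in these differences.

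**Figure D5:**
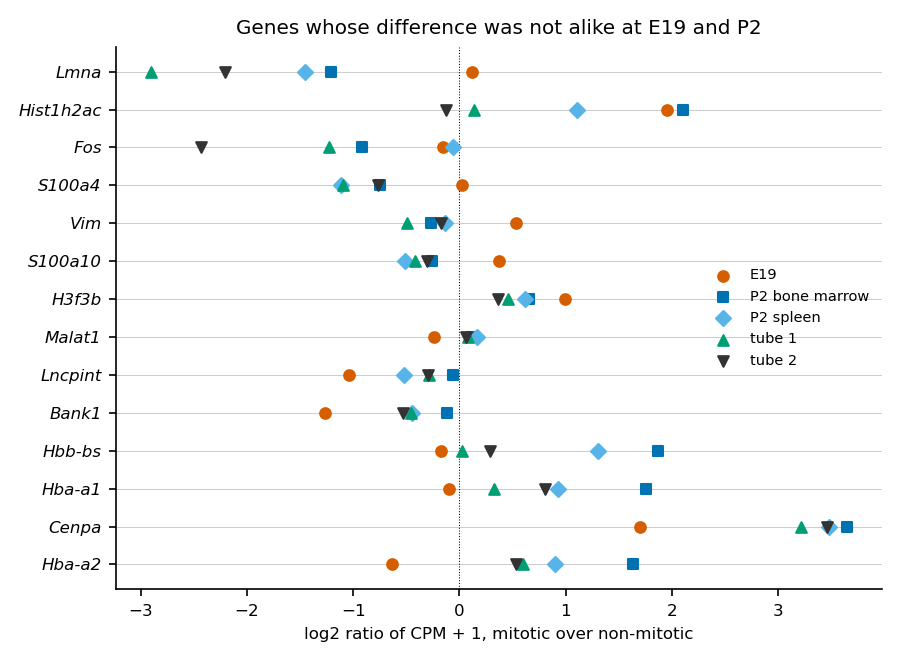
Log2 ratio of mitotic over non-mitotic CPM (1 CPM added to each) in each of 5 libraries for the 14 genes whose mitotic difference was called as unlike between E19 (orange circles) and P2 (other symbols). Cenpa is at 1.70 at E19 and between 3.21 and 3.65 in the P2 libraries, and Lmna is at 0.12 at E19 and below −1 in each P2 library.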

How the data were processed

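Libraries were 10x 3′ v3 single-cell RNA preparations. The authors deposited raw UMI counts of 32285 genes per barcode, made per the file headers with Cell Ranger 7.0.0 (P2 pool), 7.1.0 (E19) and 8.0.1 (tubes); version 7.0.0 and the mm10 build stand in the submitters' processing notes. Antibody rows of the tubes and the hashtag reference lists were not used here. Gene coordinates are from GENCODE vM21 (GRCm38), promoters from RefSeq (GRCm38.p6).

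Cells with at least 1000 genes, at least 2000 UMIs and at most 10% mitochondrial UMIs were kept: 10725, 6550, 9043, 2722 and 2473 of 11323, 8061, 10522, 2840 and 2838 barcodes. Doublets were kept, and removed by Scrublet score (scanpy 1.11.5, 0.8% per 1000 barcodes) in an alternative. Library pairs shared 0 to 34 barcodes. Matched cells were summed per library and group (10 sums of 829815 to 8229635 UMIs) and tested by quasi-likelihood in edgeR 4.0.16 (R 4.3.3) with a term for the library, TMM scaling, the filterByExpr minimum and a Benjamini-Hochberg threshold of 0.05; DESeq2 1.42.0 was an alternative. The pairing by library comes from the design, since both groups were read from the same library. CPM of tested genes are scaled by TMM; those of gate genes and marker lists are per 1000000 of all UMIs. Fold changes are log2. The value after ± is a standard error worked back from the fold change and its quasi-likelihood F statistic, since the edgeR fit gives none.

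Tested on simulated counts of 11211 genes, the group test found 97 of 100 genes changed 2-fold, 100 of 100 changed 4-fold and 9 unchanged ones; for the E19 test these numbers were 68, 93 and 9. Named genes were, among called genes with 1 sign in 5 of 5 libraries and a mean of at least 20 CPM, the 6 most raised inside the cell-cycle lists, the 10 most raised and 14 most lowered outside them, up to 4 members a list, and the 5 with the smallest p in the E19 test; 16 more were named after their values were seen. Members, lists and rules were chosen with earlier results of these data known. Alternatives were another tool, scaling, filter, match, gate, call, gene set, grouping by animal source and each library left out. H2ax, H2az1, H2az2 and Norad carry other symbols in the files, and Aldoa stands there under a repeated symbol; these were not used here. Some named genes are not reported here.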

Additional observations from a re-analysis of the deposited data

Results flagged for a closer look

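Log2 ratios of mitotic over non-mitotic CPM (1 CPM added to each) were checked in the 5 libraries for 151 named genes. In 4 genes 1 library stood apart from the other 4, where chance alone sets apart about 1 in 20. Cdc25c was at 5.57 in P2 bone marrow and between 4.25 and 4.61 elsewhere, and Cenpa at 1.70 at E19 and between 3.21 and 3.65 elsewhere. Nr4a1 was at −0.58 in P2 spleen and between −0.45 and −0.41 elsewhere, and the B cell gene Cd79b at −0.67 in P2 bone marrow and between −0.28 and −0.15 elsewhere.

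The mitotic difference at E19 and at P2 was unlike, by edgeR's test of the interaction, for 7 named genes. E19 minus P2 was 2.51 for Lmna (adjusted p = 0.000702), 1.39 for Fos (adjusted p = 0.0244) and 0.82 for Vim (adjusted p = 0.000702). It was −1.73 for Cenpa (adjusted p = 1.96e-08), −1.80 for Hba-a2 (adjusted p = 0.000304), −1.45 for Hba-a1 (adjusted p = 0.000802) and −1.42 for Hbb-bs (adjusted p = 0.0025). E19 is 1 library and is assumed to vary like the P2 libraries. Of the 5 genes with the smallest p, DESeq2 called Cenpa only, and 0 were called without the library term.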

How the results depend on the processing

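Of 2642 recomputed fold changes of 167 named genes, 2371 kept direction and side of the threshold, 221 kept direction but were no longer called, 26 became called and 24 changed sign; 30 of 146 called genes lost their call without 1 library. Without the library term as a replicate block, edgeR called 536 genes higher and 117 lower, and 0 and 0 in the E19 test (58 at an unadjusted p under 0.05, against 935 with the block). DESeq2 called 852 and 565, and 0 and 1 in the E19 test (53 at an unadjusted p under 0.05). Cells without matching on depth gave 3441 higher and 3660 lower, of which 1426 and 1217 were shared with the matched result, and 12 higher in the E19 test. No filter gave 15 and 15 in the E19 test and RLE scaling 11 lower. With 1 sum per animal source 1483 were higher and 1233 lower. Leaving out 1 library each gave 1198 to 1592 higher and 945 to 1469 lower, and in the E19 test 3 to 10 higher and 2 to 22 lower. The share difference inside against outside the gate ranged from −19.3 to −15.6 points without 1 library. The cause of these shifts was not tested. Fits without a library also have fewer sums.

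Without matching, the sign turned for Ydjc (0.053), Klf2 (−0.25), Calr (0.24), Cd52 (0.023), Ldha (0.30), Pkm (0.15), Myc (0.40), Polr1b (0.21), Srm (0.65), Hsp90ab1 (0.28), Bax (0.078), H2-Q4 (−0.054), H2-T22 (−0.077), Cdca7 (0.14), Mcm6 (0.12), Cdk6 (0.55), Lmo2 (−0.062), Itgal (0.00195), Nkg7 (0.92), H2-Ab1 (1.496) and Emcn (−0.31). It also turned for the medians of glycolysis (0.088), MYC and ribosome (0.50), MHC class I (−0.066), T and NK (0.59), macrophage (−0.27), dendritic (0.69) and endothelial (−0.31) lists, and in the E19 test for Hba-a2 (0.24) and Hba-a1 (0.63). With at least 5 of the genes, the medians of G1 (−0.069) and homing (0.061) turned. With 7 other mitotic genes Hbb-bs (−0.11), Hba-a1 (−0.15) and the erythroid median (−0.15) turned, without high Scrublet scores Hba-a1 (−0.10) and the erythroid median (−0.10), and without P2 bone marrow that median (−0.10). Depth limits what can be read from genes under a few CPM.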

Other observations

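Some further genes stood out by size but lay below the mean of 20 CPM asked of named genes, and were chosen after their values were seen. Slfn5, a schlafen family gene, had the largest negative fold change of all genes tested, −2.79 ± 0.214 (2.79 ± 2.37 CPM in mitotic and 20.4 ± 11.3 CPM in non-mitotic sums, SD, n = 5, edgeR adjusted p = 2.62e-13), and was lower in 5 of 5 libraries. Igdcc4, an immunoglobulin superfamily gene, was at −1.70 ± 0.201 (4.88 ± 2.11 CPM in mitotic and 14.8 ± 4.94 CPM in non-mitotic sums, edgeR adjusted p = 1.64e-08).

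Tppp3, the gene whose Cre driver marked the pups, was too scarce to test. Matched mitotic cells held 6 Tppp3 UMIs (1, 1, 0, 2 and 2 in E19, P2 bone marrow, P2 spleen, tube 1 and tube 2), and matched non-mitotic cells 36 (5, 7, 2, 20 and 2). Of those 36 UMIs 20 lay in tube 1. Hoxb5, an HSC marker below the filter, had 74 UMIs in mitotic and 34 in non-mitotic cells, 50 and 24 of them at E19. The CDK inhibitor gene Cdkn2c, also below the filter, had 42 UMIs in mitotic and 3 in non-mitotic cells. The erythroid factor genes Gata1 and Klf1 had 51 and 48 UMIs in mitotic cells, against 14 and 14 in non-mitotic cells.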
